A study of Mus musculus with 20 samples.

Results

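The INK4 locus and the G1 checkpoint genes that act with it were followed in the diaphragm of mice 12 weeks after fibers had been placed in the pleural cavity. The set consists of 10 genes: Cdkn2a, Cdkn2b, and Mtap from the locus, the related inhibitors Cdkn2c and Cdkn2d, the kinases Cdk4 and Cdk6, the cyclin Ccnd1, the retinoblastoma gene Rb1, and the polycomb gene Bmi1. These were chosen by name among the 32053 gene names on the array, and are represented by 15 of its 55681 probes, each of which was read separately. Of these, 14 probes of 9 genes exceeded background on 4 or more of the 20 arrays and entered the tests, whereas the single Cdk6 probe did not.

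The proteins of this set form a brake on entry into S phase. D-type cyclins activate CDK4 and CDK6, which phosphorylate the retinoblastoma protein and release E2F transcription factors, and the INK4 proteins bind these kinases and block them. Cdkn2a encodes p16Ink4a and, from a separate first exon and another reading frame, p19Arf, which restrains MDM2 and so stabilizes p53. Loss of this locus, often together with the adjacent Mtap, is well known in mesothelioma, and BMI1 is known as a polycomb repressor of it.

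All mice were female C57Bl/6, were 8 weeks old at injection, and received a single 100 μL injection into the pleural cavity with 0.5% BSA/saline as vehicle, so that the control group differed from the others only in the absence of fibers. SFA and LFA are short and long fibers of amosite, an amphibole asbestos, given at 25 μg per mouse, and 3.1% of SFA and 100% of LFA fibers reached 5 μm in length. NTS and NTL are short and long carbon nanotubes given at 5 μg per mouse. Each group held 4 mice, with 1 array of diaphragm RNA per mouse. Because the doses of asbestos and nanotubes differ, values of LFA and NTL are given side by side, and their difference is not a comparison at matched dose. The tissue was checked against 11 skeletal muscle markers, which were all well above background on all 20 arrays, and the α-actin gene Acta1 lay between 8.31 and 10.11 on the scale defined next. Liver RNA was also present in part of the arrays. The liver transcript Alb ranged from -1.94 to 10.14 on that scale. It was above Acta1 on LFA replicates 1 and 3 and on NTS replicates 3 and 4.

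Levels are log2 signals relative to the 75th percentile of each array, so that a level of 0 is a signal at that percentile, and changes are differences of group means on this log2 scale. A probe was called when its change was at least 1, that is 2-fold, and its Benjamini-Hochberg adjusted p in limma's test, over all 36920 tested probes, was under 0.05. The labels name separate mice, so p-values measure the spread between mice. In whole tissue, fewer cells of a type and less RNA per cell cannot be told apart.

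Both Cdkn2a probes lie at the 3′ end of the gene, at chr4:88920405-88920464 (probe 1) and chr4:88920543-88920602 (probe 2) on the minus strand of NCBI37. This end is shared by the Ink4a and Arf transcripts, and no value given here separates them. What does separate them is their promoters, and the 250 bases before each of the 2 starts are therefore shown with those of Cdkn2b, the neighboring INK4 gene. The sequences are RefSeq windows of GRCm38.p6, 5′ to 3′ on the minus strand of chromosome 4, with CpG dinucleotides in capitals:
Cdkn2a, exon 1α (Ink4a) start, chr4:89282193-89282442: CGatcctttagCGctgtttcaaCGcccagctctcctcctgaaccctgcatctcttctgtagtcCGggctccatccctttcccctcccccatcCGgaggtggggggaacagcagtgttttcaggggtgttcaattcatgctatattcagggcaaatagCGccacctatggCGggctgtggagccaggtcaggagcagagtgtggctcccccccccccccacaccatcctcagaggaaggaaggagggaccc
Cdkn2a, exon 1β (Arf) start, chr4:89294620-89294869: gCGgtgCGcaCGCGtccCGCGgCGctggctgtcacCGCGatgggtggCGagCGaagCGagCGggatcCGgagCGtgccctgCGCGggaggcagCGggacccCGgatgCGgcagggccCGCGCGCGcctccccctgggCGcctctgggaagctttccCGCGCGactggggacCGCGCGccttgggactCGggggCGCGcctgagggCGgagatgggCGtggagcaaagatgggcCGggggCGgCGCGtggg
Cdkn2b start, chr4:89311033-89311282: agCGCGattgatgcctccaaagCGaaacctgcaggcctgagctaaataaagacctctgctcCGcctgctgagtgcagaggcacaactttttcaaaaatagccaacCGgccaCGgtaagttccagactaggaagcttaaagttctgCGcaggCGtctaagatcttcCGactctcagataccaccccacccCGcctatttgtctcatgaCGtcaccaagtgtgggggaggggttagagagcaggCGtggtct

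The promoters differed in base composition. The window before the Arf start held 40 CpG and had a GC content of 78.4%, and 98.7% of the 32841 windows searched held fewer CpG. The window before the Ink4a start held 7 CpG at a GC content of 60% and stood at the 53.7th percentile, near the median of all windows (6 CpG, 52.4% GC). This window ends at the start. The study places the Ink4a CpG island in exon 1α, which was not counted here. The Cdkn2b window held 12 CpG at 53.6% GC and stood at the 66.5th percentile. Of the motifs searched on both strands, the Arf window held the GC box GGGCGG at 48 and 14 bases before the start, a motif present in 32.75% of all windows, and the E2F motif TTTCCCGC at 99 bases before it, present in 0.9%. The Ink4a and Cdkn2b windows held neither motif, nor the E2F motif TTTGGCGC (0.42% of windows), nor the AP-1 motif TGACTCA (4.46%). Of the other members, Mtap, Cdkn2c, Cdkn2d, Cdk4, Cdk6, and Bmi1 also had a window, which makes 8 of 10 genes.

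Cdkn2a was the only member called in any comparison, and it was called in both groups exposed to long fibers. On probe 1 the 4 control arrays read -1.92, -1.80, -0.84, and -2.75, and the 4 LFA arrays read 0.12, 1.39, 1.43, and 0.74. The 4 NTL arrays read 0.52, 1.38, 0.24, and 1.17. Every long-fiber array was above every control array, and the long-fiber groups overlapped each other. The SFA arrays, at -1.40, -1.90, -1.55, and -1.26, and the NTS arrays, at -2.12, -2.83, -1.12, and -3.09, lay within or beside the range of the control arrays.

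**Figure D1:**
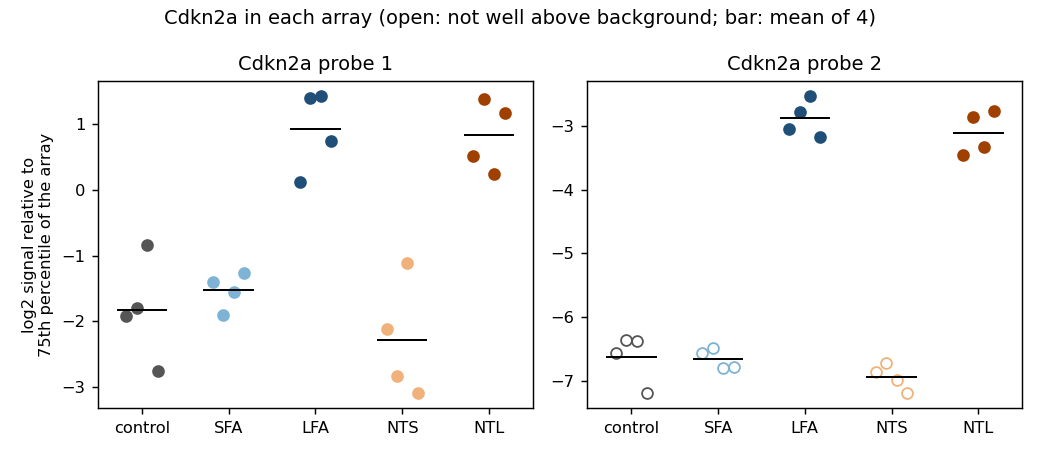
Level of both Cdkn2a probes in each of the 20 arrays, as log2 signal relative to the 75th percentile of the array. Each point is a mouse, bars are means of 4, and open points were not well above background. On probe 2 all 12 control, SFA, and NTS arrays are open points, and the 8 LFA and NTL arrays lie above them from -3.45 to -2.53.

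The change of probe 1 against control was 2.75 in LFA (SE 0.45, 95% interval 1.81 to 3.69, adjusted p = 0.00276) and 2.66 in NTL (SE 0.45, 1.72 to 3.60, adjusted p = 0.00167). In SFA the difference was 0.30, with an interval from -0.64 to 1.24, and in NTS it was -0.46, with an interval from -1.40 to 0.48. Between lengths of the same material, LFA exceeded SFA by 2.45 (adjusted p = 0.00942) and NTL exceeded NTS by 3.12 (adjusted p = 0.000307). The length effects of both materials differed by -0.67, with an interval from -2.0 to 0.66. In order of mean level the groups ran LFA, NTL, SFA, control, NTS, and NTL and SFA were the only neighbors in this order whose arrays did not overlap.

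Probe 2 gave bounds rather than folds. It was well above background on all 4 LFA arrays, at -3.04, -2.79, -2.53, and -3.17, and on all 4 NTL arrays, at -3.45, -2.86, -3.34, and -2.77. It was not well above background on any array of the control (-7.19 to -6.37), SFA (-6.79 to -6.48), or NTS group (-7.19 to -6.72). Against the lowest signal well above background on the control arrays, LFA was higher by at least 4.80-fold and NTL by at least 4.11-fold. This probe entered the tests only through its signal in LFA and NTL, so its passing them is not independent of the change and its p-values are not given. Against the short fiber of the same material, the bound was 5.55-fold for LFA and 3.69-fold for NTL. With the normexp background correction, which adds an offset of 50, this probe was no longer called in any of these 4 comparisons. Its changes were then 0.74 and 0.55 for LFA and NTL against control, whereas probe 1 was still called. An added offset narrows the log2 changes of faint probes most, and its part in this drop was not tested.

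These calls were read against all probes. In LFA against control, 2 of 14 tested member probes were called, both Cdkn2a, beside 3.94% of all tested probes, and in NTL 2 of 14 beside 6.81%. LFA against SFA gave the same 2 beside 1.16%, and NTL against NTS the same 2 beside 7.6%. In each of these counts probe 2 was admitted by its own signal in the long-fiber groups, so the count is partly set by the filter, and probe 1 is the call that does not rest on it. With only probes well above background on all 20 arrays, probe 1 alone of the Cdkn2a probes was tested, and it was called in all 4 comparisons. In SFA and NTS against control, limma called 0 member probes and 0% of all probes, and 0 and 1 member probes had an unadjusted p under 0.05. Between LFA and NTL and for the difference of length effects, limma also called 0% of all probes and 0 member probes, with 0 and 1 at an unadjusted p under 0.05. Over the 5 groups at once, limma's F test passed probe 1 of Cdkn2a (adjusted p = 0.000143) beside 6.85% of all probes, and the methods' test, which allows unequal variances, passed it too (adjusted p = 0.0298) beside 3.71%. Probe 2, admitted as above, also passed both, and no other member did. The median change of the 14 member probes was 0.08 in SFA, 0.06 in LFA, -0.16 in NTS, and 0.13 in NTL, beside medians over all probes of -0.10, -0.28, -0.06, and -0.25.

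By the names of the scanner files, the arrays were spread over 3 slides. The first held no SFA or NTL array, and the third held no NTS array. NTL and NTS therefore shared only the second slide, with 1 and 2 arrays, so length and slide are partly confounded between them. Within slides, probe 1 was higher in LFA than in control by 3.84 on the first slide (2 against 1 array), 1.98 on the second (1 against 2), and 2.23 on the third (1 against 1). It was higher in NTL by 2.38 on the second slide (1 against 2) and 1.77 on the third (3 against 1). With slide as a block the change was 2.73 in LFA (adjusted p = 0.00452) and 2.36 in NTL (adjusted p = 0.0112). The calls among all probes were then 899 in LFA (1455 without the block) and 1328 in NTL (2514). They were 320 in LFA against SFA (429) and 756 in NTL against NTS (2807).

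**Figure D2:**
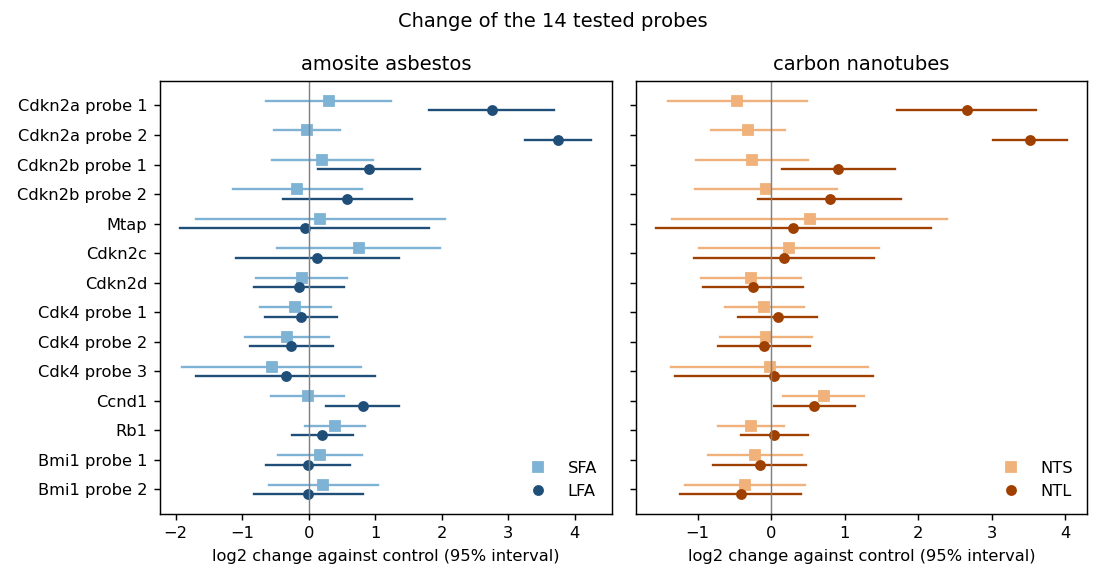
Change against control of the 14 tested probes, with SFA and LFA on the left and NTS and NTL on the right. Points are log2 differences of group means and lines are 95% intervals from limma's fit. Both Cdkn2a probes stand apart in LFA and NTL, and the intervals of Mtap reach from -1.93 to 1.80 in LFA.

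Cdkn2b, the neighboring gene encoding the CDK inhibitor p15Ink4b, was read by 2 probes of unequal brightness. On probe 1 (chr4:88952276-88952335, NCBI37, minus strand) the control arrays read -0.69, 0.40, -0.99, and -0.82. The LFA arrays read -0.25, 0.56, 0.50, and 0.72, and the NTL arrays -0.03, 1.19, 0.15, and 0.24. The second control array lay within the range of both long-fiber groups. The difference from control was 0.91 in LFA (SE 0.36, adjusted p = 0.144) and 0.92 in NTL (SE 0.36, adjusted p = 0.132), and neither passed the test. With that control array left out, the NTL difference was 1.22 and was called (adjusted p = 0.048). Within slides the difference in LFA was 1.42, -0.11, and 1.55 on slides 1, 2, and 3, and in NTL it was 0.12 and 1.52 on slides 2 and 3, so it was near 0 on slide 2, which held 2 of the 4 control arrays.

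The NTS arrays of probe 1, at -1.08, -1.14, -0.18, and -0.73, were all below the NTL arrays, as for 7.61% of all probes. NTL exceeded NTS by 1.17 (SE 0.36, 95% interval 0.41 to 1.93), and the adjusted p of 0.0519 was just over the threshold. This was called in 7 of 29 alternative settings, among them quantile normalization (adjusted p = 0.0447), and the adjusted p was 0.17 with slide as a block. The SFA arrays, at 0.20, -0.92, -0.09, and -0.47, overlapped both control and LFA.

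Probe 2 of Cdkn2b (chr4:88952720-88952779) ranged between -4.16 and -2.49 in control, between -3.39 and -1.84 in LFA, and between -2.80 and -2.0 in NTL. Its second control array was not well above background. The differences were 0.58 in LFA (adjusted p = 0.46) and 0.80 in NTL (adjusted p = 0.315), and the groups overlapped. When the ratio of 5′ to 3′ signal described below was a covariate, both were called, at 1.03 (adjusted p = 0.0425) and 1.05 (adjusted p = 0.0237).

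Mtap, which encodes methylthioadenosine phosphorylase of the methionine salvage pathway, lies beside Cdkn2a on the opposite strand (probe at chr4:88826213-88826272). In each group 1 array lay well below the others. The control arrays read -0.88, -4.82, -1.16, and -0.87, and the LFA arrays -1.06, -1.53, -4.19, and -1.19. The NTL arrays read -1.04, -3.43, -0.77, and -1.27. The difference from control was -0.06 in LFA, with an interval from -1.93 to 1.80, and 0.30 in NTL, so that a 2-fold change in either direction lay within the first interval and was not detectable at this spread. In SFA it was 0.18 and in NTS 0.52, each with an SE of 0.89.

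The other INK4 genes, Cdkn2c (p18Ink4c, chr4:109333508-109333567) and Cdkn2d (p19Ink4d, chr9:21092934-21092993), showed no call. Cdkn2c read 1.16, -1.37, 0.26, and 0.36 in control, 0.94, 0.42, -1.52, and 1.09 in LFA, and 0.67, -0.11, 0.15, and 0.40 in NTL. Its highest mean was in SFA, at 0.75 above control (SE 0.58, adjusted p = 0.999), where the arrays read -0.16, 1.50, 1.55, and 0.53. Cdkn2d had the arrays of all 5 groups between 1.66 and 3.22, and its differences from control ran from -0.28 in NTS to -0.11 in SFA (SE 0.32).

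Cdk4, the kinase held by these inhibitors, was read by 3 probes, the brightest at chr10:126504279-126504338. On this probe control arrays ran from 3.29 to 3.64, LFA arrays from 3.08 to 3.87, and NTL arrays from 3.33 to 3.96. The interval of the difference was -0.66 to 0.42 in LFA and -0.45 to 0.63 in NTL, so a 2-fold change of this probe lies outside both. Probe 3 of Cdk4 varied far more, from -0.03 to 2.43 among the control arrays, and its SE was 0.64. Cdk6 (chr5:3522106-3522165), the partner kinase, was well above background on 3 of 20 arrays, LFA replicates 2 and 4 at -4.49 and -2.88 and NTL replicate 1 at -5.16, and was not tested.

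Ccnd1, which encodes cyclin D1 (chr7:152116202-152116261), had the lowest adjusted p of the members in LFA after Cdkn2a. Its control arrays read 1.90, 1.99, 2.26, and 2.27, and its LFA arrays 3.11, 3.10, 2.43, and 3.01. The NTL arrays read 2.97, 2.50, 2.54, and 2.77, and the NTS arrays 2.31, 2.34, 3.50, and 3.14. All arrays of these 3 groups were above all control arrays, whereas the SFA arrays, at 2.10, 2.26, 2.06, and 1.95, were not. The difference from control was 0.81 in LFA (SE 0.26, 95% interval 0.26 to 1.36, adjusted p = 0.0798), 0.59 in NTL (adjusted p = 0.18), and 0.72 in NTS (adjusted p = 1).

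With Ccnd1, 3 member probes in LFA and 3 in NTL had every array above every control array, beside 4.6% and 6.34% of all probes, and 1 did in NTS, beside 0.624%. The LFA and NTL counts include Cdkn2a probe 2, which was tested only through its signal in these groups, so they are partly set by the filter. LFA exceeded SFA by 0.82 on Ccnd1 (adjusted p = 0.186) without overlap, which 3.15% of all probes showed, and NTL and NTS differed by -0.13. The difference of these length effects was 0.95 (unadjusted p = 0.0193 and adjusted p = 1 in limma's test). The highest NTS values came from replicates 3 and 4. These 2 arrays also had the highest signals of the liver transcript Alb of all arrays, at 10.14 and 9.82, against 0.73 and -0.68 in the other NTS arrays. Without both, the NTS difference was 0.22. LFA replicates 1 and 3 also had high Alb, at 8.84 and 9.47, and had Ccnd1 levels of 3.11 and 2.43. SFA replicates 2 and 3, at 8.66 and 7.29 for Alb, had Ccnd1 levels of 2.26 and 2.06, within the control range. The part of liver RNA in the Ccnd1 values was not tested. Within slides, Ccnd1 was higher than control by 0.46, 1.16, and 0.84 in LFA on slides 1, 2, and 3, and by 1.02 and 0.34 in NTL on slides 2 and 3. In NTS it was higher by 1.05 on slide 1 and by 0.38 on slide 2. Replicates 3 and 4 were the NTS arrays of slide 1, so high Alb and slide coincide within NTS and were not tested apart.

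Rb1 (chr14:73595408-73595467), the main target of the kinases, and Bmi1 (chr2:18607531-18607590 for probe 1) showed no call. The mean of 10 spots of the Rb1 probe gave control arrays at 1.56, 1.49, 1.60, and 1.19, LFA arrays at 1.48, 1.43, 1.73, and 2.01, and NTL arrays at 1.40, 1.72, 1.44, and 1.44. Its interval was -0.25 to 0.66 in LFA and -0.41 to 0.49 in NTL. The first Bmi1 probe lay between 1.65 and 2.45 in control, 1.51 and 2.43 in LFA, and 1.59 and 2.33 in NTL, and its difference was -0.01 in LFA and -0.16 in NTL (SE 0.30).

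**Figure D3:**
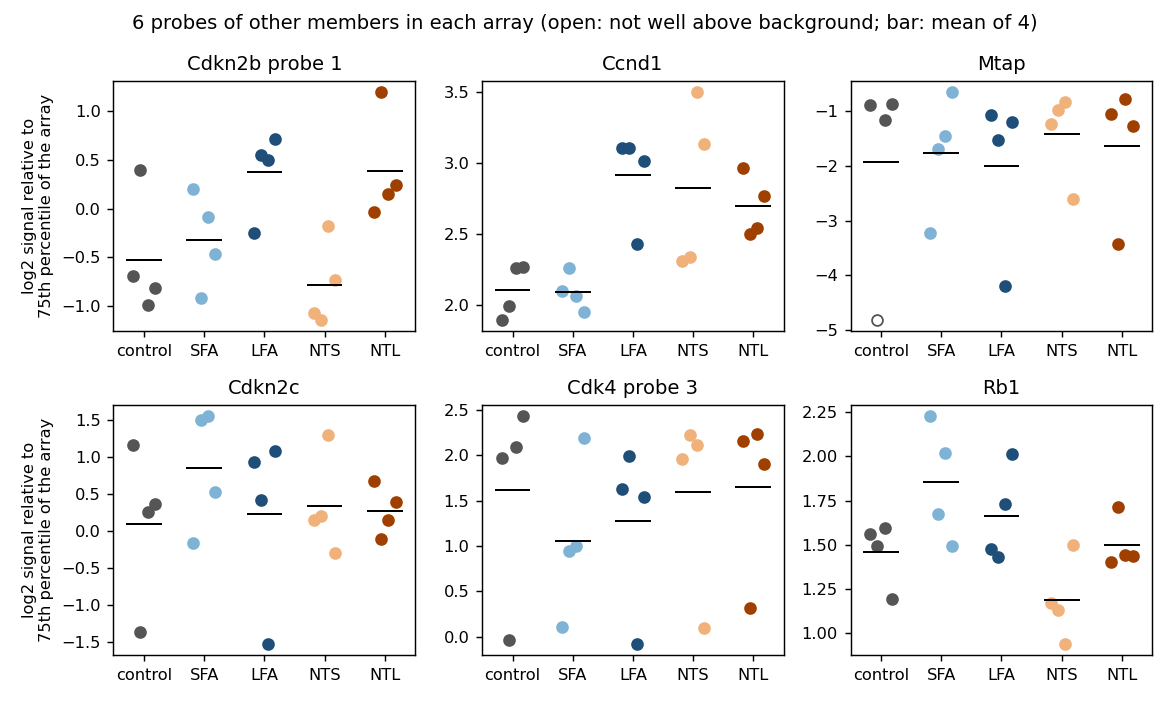
Level in each of the 20 arrays of 6 probes of Cdkn2b, Ccnd1, Mtap, Cdkn2c, Cdk4, and Rb1, as log2 signal relative to the 75th percentile of the array. Points are mice, bars are means of 4, and open points were not well above background. The low arrays of Mtap lie at -4.82 in control and -4.19 in LFA, and for Ccnd1 the LFA, NTS, and NTL arrays lie above the control arrays.

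The ratio of 5′ to 3′ signal moved with several of these probes. As an index of this ratio, the log2 signal of a 5′ probe minus that of a 3′ probe at least 1000 bases apart was averaged over 1947 transcripts on each array. What sets this index, RNA integrity among other things, was not tested. Group medians of this index were -1.25 in control, -1.71 in SFA, -1.69 in LFA, -1.05 in NTS, and -1.46 in NTL. The array with the lowest index in each group was control replicate 2, SFA replicate 1, LFA replicate 3, NTS replicate 4, and NTL replicate 2. On these arrays Mtap, Cdkn2c, the second Cdkn2b probe, and probes 2 and 3 of Cdk4 were at the lowest level of their group in all 5 groups, as were 10% of all tested probes. Cdkn2d and both Bmi1 probes were at the highest level of their group in 4 of the 5. Of all tested probes 10.4% were highest in all 5 groups, and the share for 4 groups was not counted. Each Cdkn2a probe was at the lowest level of its group on 1 of these 5 arrays and at the highest on 2. Probe 1 of Cdkn2a remained called with the index as a covariate.

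The genes around the locus were then examined. Within 500 kb of the Cdkn2a probes the array had 69 probes, of which 26 were tested. In LFA, where 3.94% of all probes were called, the only called probes were both of Cdkn2a, and in NTL, where 6.81% of all probes were called, 4 probes of the region were, the others being Gm13272 at 493.9 kb (1.55, adjusted p = 0.0253) and Gm13275 at 479.4 kb (1.0, adjusted p = 0.0363) on the side of Mtap. Both counts include Cdkn2a probe 2, which was tested only through its signal in LFA and NTL, so they are partly set by the filter. In SFA and NTS against control, limma called 0 probes of this region, and 2 and 0 had an unadjusted p under 0.05. In LFA 10 and in NTL 8 of the 26 probes had an unadjusted p under 0.05, beside 23.9% and 23.5% of all probes. The median change of the 26 probes was -0.56 in LFA and -0.33 in NTL, beside -0.28 and -0.25 for all probes. The flanking genes named in a list, Klhl9, Ifne, Dmrta1, Elavl2, and Focad, had 2 members tested, and limma called 0 of them, with 0 at an unadjusted p under 0.05 in LFA or NTL.

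**Figure D4:**
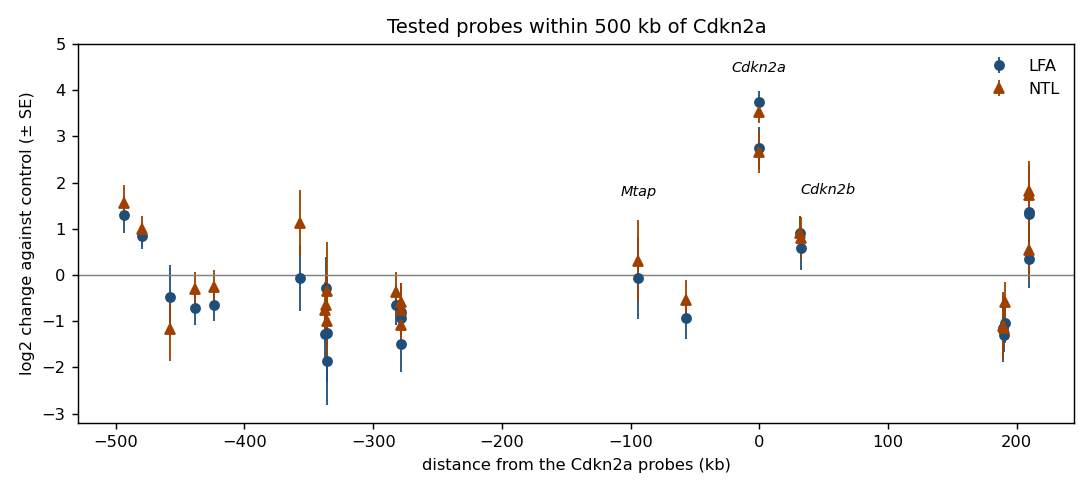
Change against control of the 26 tested probes within 500 kb of Cdkn2a, against distance from the Cdkn2a probes in kb. Circles are LFA, triangles are NTL, and lines are SE. The Cdkn2a probes at 0 lie above all others, and Mtap at -94.2 kb lies near a change of 0.

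The remaining genes of the pathway were counted from lists. Of the E2F-regulated S phase genes, which act in DNA replication and its control, 2 of 18 were called higher in LFA (2.22% of all probes) and 3 of 18 in NTL (3.63% of all probes), and 0 were called lower in either. Ccna2, which encodes cyclin A2, read -2.16, -1.94, -0.55, and -1.40 in control, -0.34, 0.30, 0.57, and 0.28 in LFA, and 0.08, 0.75, -0.26, and 0.20 in NTL. All long-fiber arrays were above all control arrays, with a change of 1.71 in LFA and 1.70 in NTL (adjusted p = 0.0105 and 0.00567). Cdk1, the mitotic kinase, rose by 1.40 in LFA and by 1.92 in NTL (adjusted p = 0.0251 and 0.00183). Cdc6, which loads the replicative helicase, rose by 1.29 in NTL (adjusted p = 0.0113) and differed by 0.94 in LFA. Rrm2 and Mcm5 passed the test in NTL with changes under 2-fold.

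The median change of the 18 S phase genes was 0.63 in LFA and 0.68 in NTL, against -0.28 and -0.25 for all probes, and was 0.10 in SFA and -0.28 in NTS. Between lengths, 8 of 18 were called higher in NTL than in NTS (median 0.97), beside 4.89% of all probes, and 0 of 18 in LFA than in SFA (median 0.54), beside 1.03%, although 8 had an unadjusted p under 0.05 in limma's test there (12.5% of all probes). The medians of all probes were -0.26 and -0.17. Whether these length effects differ was tested per gene, and no probe on the array was called for it. The genes called between NTL and NTS were Ccna2, Cdk1, Cdc6, Rrm2, Mcm3, Mcm5, Mki67, and Top2a, with changes from 1.05 for Mcm3 to 2.43 for Top2a. The counts were sensitive to single arrays. The LFA count was 1 without control replicate 1 or 4 or without LFA replicate 2 or 3, and the NTL count was 6 without control replicate 3 and 5 without NTL replicate 3. The count of NTL against NTS was 5 without NTL replicate 4, and over 30 alternatives it ran from 4 to 10. As given above, length and slide are partly confounded between NTL and NTS.

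**Figure D5:**
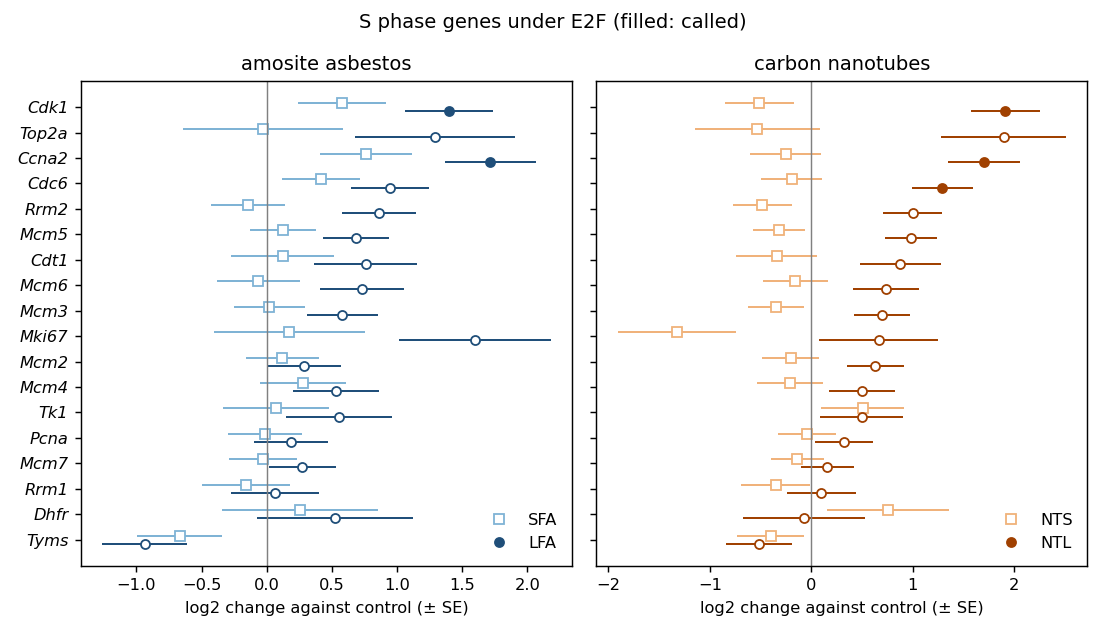
Change against control of the 18 E2F-regulated S phase genes, with SFA and LFA on the left and NTS and NTL on the right. Points are log2 differences of group means, lines are SE, and filled points were called. Ccna2 and Cdk1 are filled in both LFA and NTL, and Cdc6 in NTL.

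Among the pocket proteins and E2F factors, against control, limma called 0 of 12 in LFA (3.94% of all probes) and 2 of 12 in NTL (6.81%). In LFA 5 and in NTL 3 had an unadjusted p under 0.05, beside 23.9% and 23.5% of all probes. Rbl1, which encodes the retinoblastoma relative p107, rose by 1.54 in NTL (adjusted p = 0.0261) and differed by 1.39 in LFA (adjusted p = 0.0569). E2f1 rose by 1.23 in NTL (adjusted p = 0.0203) and differed by 1.01 in LFA (adjusted p = 0.0669). The NTL count was 0 without NTL replicate 1, 2, or 4 and 1 without NTL replicate 3 or control replicate 1, 2, or 3, and the LFA count was 3 without NTS replicate 4 and 1 without control replicate 2 or 3 or SFA replicate 2. The same 2 genes were called in NTL against NTS (1 gene without NTS replicate 2 or 3), beside 7.6% of all probes. In LFA against SFA 0 were called and 1 had an unadjusted p under 0.05, beside 1.16% and 12.5% of all probes.

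The other lists held few calls against control. Beside their counts, 3.94% of all probes were called in LFA and 6.81% in NTL. In limma's test 23.9% and 23.5% of all probes had an unadjusted p under 0.05. Of the G1 cyclins and CDKs, limma called 0 of 7 tested genes against control, with 0 at an unadjusted p under 0.05 in LFA or NTL and medians of 0.01 and 0.22. Of the CIP/KIP inhibitors 0 of 3 were called against control, with 2 at an unadjusted p under 0.05 in each long-fiber group, and the NTL count was 1 without control replicate 3 or NTL replicate 2. Cdkn1a, the p53 target p21, had differences of 0.93 in LFA (adjusted p = 0.0925) and 0.94 in NTL (adjusted p = 0.0761), and Cdkn1c fell by 0.99 in NTL (adjusted p = 0.0377), under 2-fold. Of the 14 polycomb genes 0 were called, with 2 at an unadjusted p under 0.05 in each group and medians of 0.14 and 0.05. Of the ARF-MDM2-p53 axis 0 of 4 were called and 0 had an unadjusted p under 0.05, with medians of -0.06 in both groups. Methionine salvage and polyamine genes had 0 of 9 called against control, 2 in LFA and 4 in NTL at an unadjusted p under 0.05, and medians of -0.29 and -0.50. Of 10 regulators of INK4/ARF transcription 1 was called, Runx1 in NTL (1.42, adjusted p = 0.0195), and this count was 0 without control replicate 4 or NTL replicate 4 and 2 without LFA replicate 2 or NTL replicate 2, while the LFA count was 1 without LFA replicate 3. No gene of these lists was called in SFA or NTS, where at most 1 gene of a list had an unadjusted p under 0.05. In NTL against NTS, the cyclin E1 gene Ccne1 (1.10, adjusted p = 0.0415), Cdkn1a (1.16, adjusted p = 0.0291), and Runx1 (1.92, adjusted p = 0.00225) were called higher and the methionine salvage gene Adi1 (-1.11, adjusted p = 0.0175) lower. The Ccne1 call was lost on leaving out any of 9 single arrays, the Cdkn1a call with any of 6 (NTS replicates 3 and 4 and each NTL replicate), and the Adi1 call without NTS replicate 3 or NTL replicate 2. In LFA against SFA limma called 0 genes of these lists, with at most 2 of a list at an unadjusted p under 0.05, and 1 regulator was called there without LFA replicate 1 or 3. Of all probes, 7.6% were called in NTL against NTS and 1.16% in LFA against SFA, where 12.5% had an unadjusted p under 0.05.

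Cell type markers differed between the same groups. Of 10 macrophage markers 8 were called higher in LFA (2.22% of all probes) and 8 in NTL (3.63%), with median changes of 1.97 and 2.37. Itgam of this list read lower on average in both, at 4.72 in LFA and 4.92 in NTL, against 5.51 in control. The mean of this list per array, relative to the control mean, lay between -0.14 and 0.18 in control, 0.04 and 0.59 in SFA, 1.36 and 2.27 in LFA, -0.27 and 0.31 in NTS, and 2.0 and 2.23 in NTL, and no marker of it was below background throughout. The macrophage gene Cd68 read 1.74, 2.74, 2.50, and 2.20 in control, 3.81, 4.52, 3.75, and 4.91 in LFA, and 4.22, 4.62, 5.73, and 4.16 in NTL. Of 11 muscle markers 3 were called lower in each (1.72% and 3.18% of all probes), with median changes of -1.01 and -1.06, and over 30 alternatives 0 to 5 of them were called in LFA and 1 to 6 in NTL. Of 8 mesothelium, 7 T cell, 7 granulocyte, and 8 liver markers 0 were called against control. At most 1 of each list had an unadjusted p under 0.05 in LFA or NTL, beside 23.9% and 23.5% of all probes. Of 7 fibroblast markers 1 was called higher in LFA (2.22% of all probes) and 4 in NTL (3.63%). The fibroblast count in LFA was 0 on leaving out any of 9 single arrays, each control array among them. Which cells carried the Cdkn2a signal was not tested.

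The probes most like Cdkn2a across the arrays were named by their correlation with probe 1, over 20 arrays and 21572 candidate probes of named genes. They were Oosp1 (r = 0.952), Ms4a8a (r = 0.948), Cfp, the gene of the complement factor properdin (r = 0.947), A530032D15Rik (r = 0.947), and Cd44, a hyaluronan receptor (r = 0.946). The points share the groups and the array scaling, so these values are a description. Their changes in LFA were 2.96, 1.98, 1.20, 1.57, and 1.52 in that order, beside 2.75 for probe 1.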

How the data were processed

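The authors labeled diaphragm RNA of each mouse with a single dye and hybridized it to a 60K mouse array. The deposited scanner output (Agilent Feature Extraction 10.7.3.1, per the submitters' processing notes) holds an intensity per spot with background subtracted by that software, a flag for signal well above background, and probe positions on NCBI37, which are printed here. A deposited table of log2 values normalized by the authors in GeneSpring has a single column per group and served only to check group means. Its differences from control correlated at r = 1 with those used here over 36920 probes, and the largest departure was 0.0669.

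Outlier and control spots were left out, the spots of a probe were averaged, and the 75th percentile of each array was subtracted from its log2 intensities. Arrays correlated at r = 0.909 to 0.985. A probe was tested when well above background on at least 4 of 20 arrays. A group mean model over all arrays was fitted with limma 3.58.1 in R 4.3.3 (files read by data.table, version 1.17.8), checked on simulated data, and Benjamini-Hochberg adjustment ran over all tested probes. The 95% intervals are those of this fit. Where a group was not well above background, a fold is given against the higher of each array's lowest well-above-background signal and the probe's own signal. The number of arrays, 4 per group, limits the precision. The test that the study's methods name was run over the 5 groups on the same values.

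Alternatives were normexp background correction with an offset of 50, quantile normalization, other filters, and slide and replicate blocks. Others were fits of only the groups compared, no minimum fold, and leaving out arrays. The 5′ to 3′ covariate, and the alternatives for the gene lists, were chosen after seeing the data. The members, the gene lists, and the rule for named genes (all members and the called genes of each list, each gene of a list by its brightest probe, and the 5 probes most correlated with Cdkn2a) were chosen with earlier results of these data known. Further list genes were named after their values were seen, some of them called only between lengths. They are Cdkn1a, Cdkn1c, Rrm2, Mcm5, Acta1, Cd68, Itgam, Msln, Alb, Ccne1, Adi1, Wt1, Mcm3, Mki67, and Top2a. Python 3.11.15 and matplotlib 3.10.9 drew the figures. GRCm38.p6 promoters served for sequence only and were not joined to NCBI37 positions.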

Additional observations from a re-analysis of the deposited data

Results flagged for a closer look

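In 7 of 75 sets of 4 arrays, that is a probe in a group, a single array stood apart from the other 3 by more than 0.829 of the whole range, where chance marks about 1 set in 20. Mtap was at -4.82 in control replicate 2 (others -1.16 to -0.87) and at -4.19 in LFA replicate 3 (others -1.53 to -1.06), and both are the arrays with the lowest 5′ to 3′ index of their group. NTS replicate 4, which also had the lowest index of its group, was low for Cdk4 on probe 1, at 2.81 (others 3.53 to 3.67), and on probe 3, at 0.095 (others 1.95 to 2.23). Ccnd1 was low in LFA replicate 3, at 2.43 (others 3.01 to 3.11). Rb1 was high in NTL replicate 2, at 1.72 (others 1.40 to 1.44). Cdk6 was low in control replicate 1, at -7.36, where no array of the group was well above background.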

How the results depend on the processing

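The count of called member probes fell from 2 to 1 with normexp background correction in LFA and in NTL against control, in LFA against SFA, and in NTL against NTS, and the probe lost was Cdkn2a probe 2. The test over the 5 groups gave 3 probes with normexp, both of Cdkn2a and Ccnd1 (2 in the reported fit). With a filter on all arrays it fell from 2 to 1 in LFA and in NTL against control, in LFA against SFA, and in the test over the 5 groups, because probe 2 was then not tested, and in NTL against NTS it stayed at 2, since Cdkn2b probe 1 was called there. That test gave 4 probes with the 5′ to 3′ index as a covariate, adding Cdkn2b probe 2 and Ccnd1, and the cause was not tested. With this covariate the calls among all probes were 2723 in LFA (1455 without it), 4165 in NTL (2514), 716 in LFA against SFA (429), and 4734 in NTL against NTS (2807). Cdkn2a probe 1 was called under all 29 alternatives, with changes from 2.24 to 3.08 in LFA (highest adjusted p = 0.0317), from 2.17 to 2.99 in NTL (0.0112), from 2.06 to 2.72 in LFA against SFA (0.0485), and from 2.42 to 3.51 in NTL against NTS (0.0114). When each of the 20 arrays was left out in turn, the count stayed at 2 in LFA against control and LFA against SFA, ran from 2 to 3 in NTL against control, NTL against NTS, and the test over the 5 groups, and was 0 in SFA, in NTS, in LFA against NTL, and for the difference of length effects. Of 2418 values of member changes, 140 changed sign in comparisons that were called under neither setting, the largest of them 0.56 in the reported fit, and 0 called values did.

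The replicate numbers did not pair the arrays. On the measure used for pairing, r of same-numbered arrays ran from -0.676 to 0.689 over 40 pairs, 14 of them over 0.1. On it 4 of 20 arrays correlated best with their own number. This measure is not the correlation of array levels given above, which was 0.909 or more. With the replicate block 2 member probes were called in each of the 4 comparisons named above and in the test over the 5 groups, and 0 in the others, while the calls among all probes were 1219 in LFA, 2230 in NTL, 329 in LFA against SFA, and 2483 in NTL against NTS. Among the gene lists, over 30 alternatives, calls ran from 0 to 3 in LFA and 1 to 6 in NTL for S phase genes and from 0 to 3 in both for pocket proteins and E2F. The table of the authors holds group means and could give no count of calls. Signal close to background limits Cdk6 and Cdkn2a probe 2.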

Other observations

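Of 8 mesothelium markers 0 were called against control. In NTL against NTS 1 was called higher, Wt1 (1.75, adjusted p = 0.0108), beside 4.89% of all probes. This count was 2 without NTS replicate 1. Msln, which encodes mesothelin, read 4.88, 5.96, 4.80, and 5.18 in control, 5.38, 4.60, 5.93, and 5.98 in LFA, and 4.89, 5.17, 4.73, and 4.53 in NTL, and the 3 groups overlapped. Adipocyte markers were called lower for 1 of 5 in LFA (1.72% of all probes) and 2 of 5 in NTL (3.18%). These counts moved to 0 on leaving out any of 16 single arrays in LFA and to 1 with any of 6 in NTL. B and plasma cell markers were called higher for 1 of 6 in LFA (2.22% of all probes) and in NTL (3.63%). The mean change of 8 liver markers per array ran from -2.93 to 6.11 within SFA and from -1.89 to 7.49 within NTS. It ran from -1.93 to 6.52 within LFA, from -0.21 to 3.73 within NTL, and from -1.75 to 3.64 within control.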
